A study of Sus scrofa with 40 samples.

Results

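The cortex and the corticomedullary junction of 5 pig kidneys were compared after cold storage, on 20 of the 40 Agilent single-color arrays of the series. The members were taken by title, as the cortex (C) and junction (CMJ) arrays of kidneys stored cold for 6 h (WI+CS6h) and for 24 h (WI+CS24h), with 5 arrays of each zone at each time. All kidneys came from Large White pigs 3 months old, and the supplement describes right kidneys of independent brother pigs. Warm ischemia (WI) came first in all 4 groups, with the vessels clamped at 37 °C over 60 min, and the kidneys were then flushed with University of Wisconsin solution and kept at 4 °C, and the same 5 kidneys gave tissue at 6 h and again at 24 h. Values are set beside 10 arrays of control kidneys (Ctl), frozen on removal, and 10 of kidneys frozen after WI alone, so the stored groups carry the warm ischemia that the Ctl group lacks and the times share their kidneys. A kidney could not be followed back before its storage, since Ctl and WI kidneys were other animals.

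Each zone of the kidney holds its own nephron segments. The cortex holds the glomeruli, with their podocytes, and the convoluted parts of the proximal and distal tubules. At the junction the straight parts of the proximal tubule descend toward the outer medulla beside the thick ascending limbs, which reabsorb salt, and the collecting ducts, and the larger arcuate vessels run along it. The outer medulla that begins there is known for its low oxygen supply relative to its transport work. In bulk tissue, fewer cells of a type and less RNA per cell cannot be told apart.

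The array values are log2 signals after quantile normalization of all 40 arrays, and a zonal difference is CMJ minus C, so that 1 unit is a doubling and a positive value stands for a higher signal at the junction. The size of a signal is not comparable between probes. The cortex and the junction arrays with the same number were taken as 1 kidney, which the labels do not state. All 10 pairs deviated together from their groups with r above 0.1, but only 5 matched their own number best. Limma was fitted to the 20 arrays with the kidney as a block. Following the methods of the study, an identifier was called at a Benjamini-Hochberg adjusted p under 0.05 and an absolute difference of at least 0.5. In WI+CS6h-C 57.0% to 68.5% of the spots were well above background, in WI+CS6h-CMJ 64.3% to 69.9%, in WI+CS24h-C 63.4% to 67.5% and in WI+CS24h-CMJ 62.2% to 66.0%. The median SD of an identifier within a group was 0.384 in WI+CS6h-C, 0.239 in WI+CS6h-CMJ, 0.302 in WI+CS24h-C and 0.270 in WI+CS24h-CMJ, against 0.187 to 0.250 in the groups without storage. The cortex at 6 h had the largest spread of the 8 groups. The size of a difference at a low signal turned on the background correction. With normexp, which keeps low signals closer together, 35 of 59 genes followed at 6 h and 38 at 24 h had a difference more than 1.5 times smaller or of the other sign, and on the deposited values 21 at each time, while bright genes such as SLC12A1, CLDN19 and FN1 moved little. Differences at 24 h leaned on kidney 3. Without it 29 of the 59 were more than 1.5 times smaller or of the other sign, against 0 to 2 without another kidney, and at 6 h 2 to 9 without any 1 kidney.

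Few zonal differences of cold-stored kidneys passed the test. At 6 h limma called 1 of 35943 identifiers (0.00278%), HAS1, and at 24 h 0 (0%), with a smallest adjusted p of 0.910, so that 0 were called at both times. With quantile normalization by group, which the methods describe and which moves whole groups against each other, the counts were 846 at 6 h (401 higher in CMJ), 508 at 24 h (499) and 56 at both times, all higher in CMJ. At an unadjusted p under 0.05, limma counted 3218 identifiers at 6 h (8.95%), of which 1431 (3.98%) were higher in CMJ and 1787 (4.97%) in C. At 24 h it counted 1767 (4.92%), of which 769 (2.14%) were higher in CMJ and 998 (2.78%) in C. In the same direction at both times there were 453 (1.26%), 293 of them (0.815%) higher in CMJ and 160 (0.445%) in C. With the kidney as the unit and both times averaged, limma called 0 identifiers (smallest adjusted p 0.518), with 3250 (9.05%) at an unadjusted p under 0.05, of which 1580 (4.4%) were higher in CMJ and 1670 (4.65%) in C. The change of the zonal difference from 6 h to 24 h was called for 0, with 1299 at an unadjusted p under 0.05.

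HAS1 (NM_001136212), which makes the matrix sugar hyaluronan, measured 3.55, 3.80, 4.80, 3.71 and 3.11 in the WI+CS6h-C arrays of kidneys 1 to 5, and 1.50, 1.95, 2.04, 2.48 and 1.69 in WI+CS6h-CMJ. Every cortex array stood above every junction array at 6 h. The difference was -1.86 (SE 0.23, adjusted p = 0.0486 by limma), but -0.13 with normexp and -0.45 on the deposited values, neither of them called, with the signal well above background on 4 of 5 cortex arrays and 1 of 5 junction arrays. At 24 h HAS1 measured 2.65, 2.56, 3.09, 3.14 and 2.19 in C and 1.76, 2.38, 2.82, 1.74 and 2.46 in CMJ, where it was not well above background on any array. The groups overlapped at 24 h, with means of 2.72 and 2.23 (adjusted p = 0.910). No fold is given there, since the difference of -0.49 ran from -0.683 to -0.268 when a kidney or an array was left out and was 0.07 with normexp. In kidneys without storage HAS1 was not well above background on any Ctl array, and in WI it differed by -1.30 with 1 of 5 junction arrays well above background. The adjusted p at 6 h lay just under the threshold, and 0 identifiers were called there under 9 of the other settings and in 20 of the 25 fits that left out a kidney or an array, where its difference stayed between -2.02 and -1.64.

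The call counts changed with the fit. In the fit of all 40 arrays, added after the data were seen, 45 identifiers (0.125%) were called at 6 h, 37 of them higher in CMJ, and 0 at 24 h. These 45 include SLC5A1, OAT, UCP2, CA9 and SORCS1, all higher at the junction, and HAS1 (adjusted p = 0.00156), higher in the cortex. In the mean contrast of the 20 arrays, which counts the times of a kidney as separate pairs, 30 were called, 23 of them higher in CMJ, and among them PROX1 and SLC5A1 higher and PLET1, ESM1 and HAS1 lower in CMJ. In the same 40-array fit 390 identifiers (1.09%) were called in Ctl and 613 (1.71%) in WI, and without the kidney block 112 and 241. Without the block that fit called 29 at 6 h, 21 of them higher in CMJ, and 0 at 24 h. Pairs by number passed the check on shared deviations in the stored kidneys but not in Ctl, where no correlation was above 0.1, and only in part in WI, where 3 of 5 were.

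Of the list of 7 straight proximal tubule genes on the array, 2 were above 0 at both times and 3 were below 0 at both. SLC5A1, a carrier of the list, and the enzyme OAT, outside it, differed toward the junction. SLC5A1 (NM_001164021) encodes SGLT1, the sodium-glucose carrier of the late proximal tubule. In WI+CS6h-C it measured 6.75, 6.59, 6.76, 6.59 and 7.19 in kidneys 1 to 5, and in WI+CS6h-CMJ 7.54, 7.35, 8.19, 8.54 and 8.70. At 24 h it measured 6.27, 7.37, 6.58, 7.50 and 8.10 in C and 7.65, 7.56, 8.22, 7.86 and 8.43 in CMJ. The junction was the higher zone in all 5 kidneys at both times, the arrays of both zones stood apart at 6 h, and at 24 h they overlapped because the cortex of kidney 5 was as high as the junction of others. The difference was 1.29 (SE 0.23, 2.44-fold, adjusted p = 0.123) at 6 h and 0.78 (SE 0.23, 1.72-fold, adjusted p = 0.910) at 24 h by limma on the 20 arrays, with 0.73 and 0.41 under normexp, and adjusted p was 0.0149 at 6 h in the 40-array fit. In Ctl and WI kidneys it was 1.40 and 1.41, both called. With 5 kidneys an exact permutation test of signs cannot give a two-sided p under 0.0625, the value SLC5A1 had at both times.

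OAT, the ornithine aminotransferase of the straight segment, measured 9.22, 9.20, 10.21, 10.39 and 9.73 in WI+CS6h-C and 9.62, 9.55, 11.73, 12.08 and 10.80 in WI+CS6h-CMJ. The kidneys differed more than the zones did, since kidneys 1 and 2 were low and kidneys 3 and 4 high in both, and the junction was above the cortex in each of the 5 kidneys. The difference was 1.01 (SE 0.21) at 6 h and 0.51 (SE 0.21; 0.32 without kidney 3) at 24 h, where 4 of 5 kidneys were higher in CMJ, against 1.06 in Ctl and 1.03 in WI. A second OAT identifier gave 1.01 and 0.50. The other genes listed for the straight part had smaller differences, of either sign. At an unadjusted p under 0.05 by limma the list held 2 genes higher in CMJ and 0 higher in C at 6 h. At 24 h it held 1 higher in CMJ and 1 higher in C. SLC3A1, a subunit of the cystine carrier, differed by 0.01 and -0.12, the glutamate carrier SLC1A1 by -0.27 and -0.31, and the list of 7 genes on the array had a median of -0.12 at 24 h and of 0.01 at 6 h, where the sign turned under other scalings (-0.02 with the 75th percentile).

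Genes of the thick ascending limb measured higher at the junction at both times. Of 9 listed genes on the array, 7 were above 0 at both times, 5 at 6 h and 4 at 24 h passed an unadjusted p under 0.05 with CMJ higher and 1 at 6 h, EGF, with C higher, and 0 were called. Their median difference was 0.32 at 6 h and 0.24 at 24 h, beside -0.04 and -0.00 over all identifiers, and it was 0.63 in Ctl and 0.46 in WI. Quantile normalization by group moved the median of all identifiers at 24 h to 0.15 and the share above 0 to 72.5%, and left the median of this list at 0.25. SLC12A1, the furosemide-sensitive cotransporter NKCC2, measured 9.93, 9.88, 9.88, 10.04 and 10.05 in WI+CS6h-C and 10.13, 9.86, 10.96, 11.07 and 10.90 in WI+CS6h-CMJ. At 24 h it measured 9.62, 10.12, 10.07, 10.05 and 10.41 in C and 10.66, 10.01, 11.42, 10.75 and 10.64 in CMJ. The cortex was nearly even among kidneys at 6 h and more spread at 24 h, and kidney 2 had no higher signal at the junction at either time. The differences were 0.63 (SE 0.20) and 0.64 (SE 0.20), adjusted p = 0.508 and 0.910 by limma, against 1.24 in Ctl and 1.16 in WI.

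CLDN19 and CLDN16 form the paracellular pathway for magnesium and calcium in this limb. CLDN19 measured 10.37, 10.25, 9.81, 9.61 and 10.08 in WI+CS6h-C and 10.66, 10.70, 10.66, 10.61 and 10.58 in WI+CS6h-CMJ. The junction arrays at 6 h were nearly level and all above the cortex arrays, and at 24 h the zones overlapped, with the cortex of kidney 2 (10.86) above its junction (10.78). CLDN19 differed by 0.61 (SE 0.16) and 0.49 (SE 0.16; 0.27 without kidney 3), and CLDN16 by 0.28 and 0.19 with all 5 kidneys above 0 at both times. In Ctl and WI kidneys CLDN19 differed by 1.15 in each, and CLDN16 by 0.63 and 0.67, all of them called. The potassium channel KCNJ1 (ROMK) differed by 0.32 and 0.24 (0.11 at 24 h without kidney 3), the calcium-sensing receptor CASR by 0.32 and 0.32, and the prostaglandin receptor PTGER3 by 0.36 and 0.48 (0.24 and 0.31 without kidney 3). EGF, which is also made in the distal convoluted tubule, differed by -0.27 and -0.14.

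**Figure D1:**
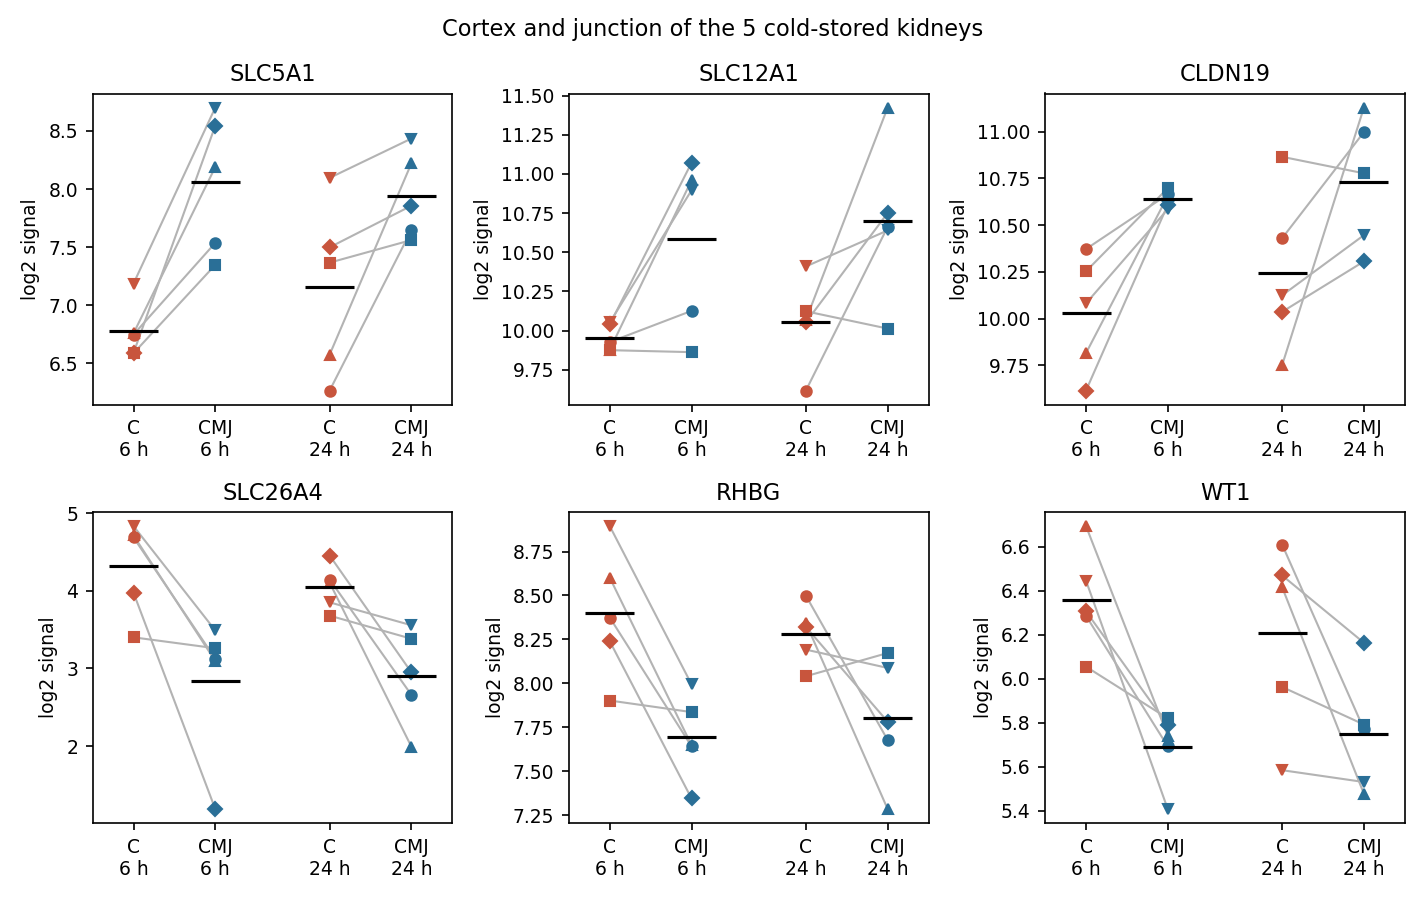
Log2 signal (vertical axis) of SLC5A1, SLC12A1, CLDN19, SLC26A4, RHBG and WT1 in the cortex (C, red) and junction (CMJ, blue) arrays of the 5 cold-stored kidneys at 6 h and 24 h, with 1 symbol shape per kidney, grey lines joining the zones of a kidney and black bars at the group means. The junction symbol of SLC5A1 is above its cortex symbol in all 5 kidneys at both times, and those of SLC26A4 and WT1 are below, with kidney 2 (squares) on the flattest line at 6 h for SLC12A1, SLC26A4, RHBG and WT1.

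Intercalated cells, which secrete acid or base from the connecting tubule and collecting duct, had the largest median difference of the lists in the opposite direction under the scaling used, though not at 24 h with normexp, where the convoluted proximal tubule (-0.16) and fatty acid oxidation (-0.13) were further below 0 than they were (-0.10). Of the 7 listed genes on the array all were below 0 at both times, 5 at 6 h and 4 at 24 h had an unadjusted p under 0.05 with C higher, and 0 were called. The median was -0.35 at 6 h and -0.22 at 24 h, against -0.44 in Ctl and -0.54 in WI. SLC26A4 (pendrin), the chloride-bicarbonate exchanger of base-secreting cells, measured 4.69, 3.40, 4.71, 3.97 and 4.83 in WI+CS6h-C and 3.13, 3.26, 3.10, 1.19 and 3.49 in WI+CS6h-CMJ. At 24 h it measured 4.14, 3.68, 4.10, 4.45 and 3.85 in C and 2.66, 3.38, 1.99, 2.95 and 3.56 in CMJ. The cortex was higher in every kidney at both times, with the arrays of both zones apart at 24 h, and the smallest gaps were those of kidney 2 at 6 h and of kidneys 2 and 5 at 24 h.

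The SLC26A4 differences were -1.49 (SE 0.40) and -1.14 (SE 0.40), adjusted p = 0.401 and 0.910 by limma, but -0.14 and -0.09 with normexp, with the signal well above background on all cortex arrays and on 4 and 3 of 5 junction arrays. In Ctl it differed by -1.30 and in WI by -2.26 (1 of 5 junction arrays well above background), of which the second was called. RHBG, an ammonia channel, measured 8.37, 7.90, 8.60, 8.24 and 8.89 in WI+CS6h-C and 7.64, 7.84, 7.65, 7.35 and 8.00 in WI+CS6h-CMJ, a difference of -0.71 (SE 0.18) that was below 0 in all 5 kidneys, and at 24 h the difference was -0.48 with kidney 2 above 0. ATP6V0A4, a subunit of the proton pump, differed by -0.35 and -0.22 (-0.17 and -0.10 with normexp), and CA2, the carbonic anhydrase that supplies the pump, by -0.35 and -0.20, below 0 in all 5 kidneys at both times for each gene. RHCG differed by -0.31 and -0.59 (-0.25 and -0.18 with normexp) and the anion exchanger SLC4A1 by -0.34 and -0.08.

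Podocyte genes had medians of -0.14 and -0.11, with 8 of 10 below 0 at both times and 2 at each time at an unadjusted p under 0.05 with C higher. WT1, the transcription factor of podocytes, measured 6.29, 6.05, 6.69, 6.31 and 6.45 in WI+CS6h-C and 5.69, 5.82, 5.74, 5.79 and 5.41 in WI+CS6h-CMJ. Its signals at 24 h were 6.61, 5.96, 6.42, 6.47 and 5.58 in C and 5.77, 5.79, 5.48, 6.16 and 5.53 in CMJ. The zones stood apart at 6 h and overlapped at 24 h, with the cortex higher in each of the 5 kidneys at both times. The differences were -0.67 (SE 0.16) and -0.46 (SE 0.16), adjusted p = 0.314 and 0.910 by limma, and -0.45 in Ctl and -0.51 in WI, neither of them called. With normexp they were -0.23 and -0.15. The surface sialomucin PODXL differed by -0.16 and -0.08, and the dim phosphatase PTPRO by -0.30 and -0.55 (-0.06 and -0.06 with normexp).

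The convoluted proximal tubule measured slightly higher in the cortex. Of 20 listed genes on the array, 17 were below 0 at both times and 0 of 20 above 0 at 24 h. The median was -0.11 at 6 h and -0.20 at 24 h, and -0.27 in Ctl and -0.23 in WI, and 2 genes at 6 h and 8 at 24 h had an unadjusted p under 0.05 with C higher. Single differences were small. The organic anion transporters SLC22A6 and SLC22A8 differed by -0.20 and -0.18 at 6 h and by -0.34 and -0.40 at 24 h. At 6 h they were at -0.11 and -0.08 without kidney 4 and at -0.33 and -0.34 without kidney 2. The bicarbonate carrier SLC4A4 differed by -0.21 and -0.29. G6PC, the last enzyme of glucose release, differed by -0.23 (-0.13 without kidney 3 or kidney 4) and -0.40. The glucose carrier SLC5A2 (SGLT2), which precedes SGLT1 along the tubule, differed by -0.18 and -0.16. Fatty acid oxidation, the main fuel of this segment, had 17 of 19 genes below 0 at both times, with medians of -0.09 and -0.16.

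In the distal nephron most listed genes measured lower at the junction. Of the distal convoluted and connecting tubule 5 of 6 genes were below 0 at both times, with medians of -0.16 and -0.14, and the calcium-binding protein CALB1 differed by -0.29 and -0.15, against -0.44 in Ctl and -0.48 in WI. PVALB, another calcium-binding protein of the early distal tubule, differed by 0.06 and 0.07, where Ctl and WI kidneys had 0.68 and 0.93, both called. Principal cells of the collecting duct had 7 of 10 genes below 0 at both times and medians of -0.22 and -0.11. As exceptions, the water channels AQP2 and AQP3 differed by 0.15 and 0.14 and by 0.16 and 0.18. HSD11B2, which protects the mineralocorticoid receptor from cortisol, differed by -0.39 and -0.21. A second AQP2 identifier gave -0.03 and 0.00.

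**Figure D2:**
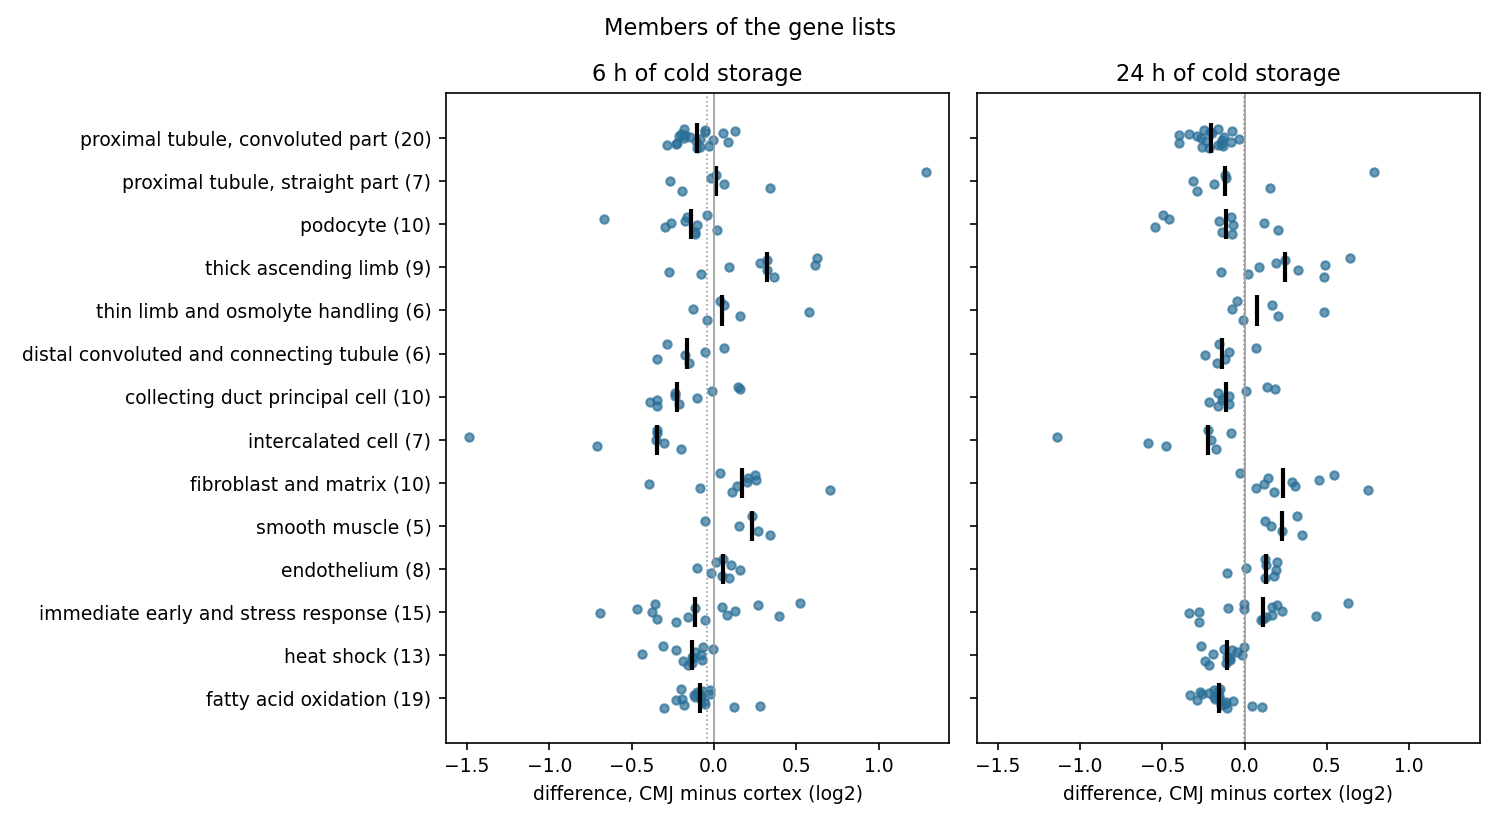
Zonal difference (CMJ minus C, log2, horizontal axis) of each measured member of 14 gene lists at 6 h (left) and 24 h (right), with a black bar at the median of a list, the number of members in parentheses and the median of all identifiers as a dotted line. The thick ascending limb lies to the right, with medians of 0.32 and 0.24, and intercalated cells to the left, with -0.35 and -0.22.

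Genes of the interstitium, matrix and vessel wall mostly measured higher at the junction. The fibroblast and matrix list had medians of 0.17 and 0.24, with 7 of 10 genes above 0 at both times, and the smooth muscle list of 5 genes 0.23 and 0.23. At 6 h the matrix list held 1 gene higher in CMJ and 1 higher in C at an unadjusted p under 0.05 by limma. At 24 h it held 3 higher in CMJ and 0 in C. The smooth muscle list held 0 at either time. FN1, fibronectin, measured 9.96, 10.44, 9.82, 10.32 and 8.94 in WI+CS6h-C and 10.39, 10.48, 10.75, 10.63 and 10.76 in WI+CS6h-CMJ. The junction was higher in all 5 kidneys at both times, although the zones overlapped at 6 h, where the cortex of kidney 5 was low and that of kidney 2 was above the junction of kidney 1. The FN1 difference was 0.70 (SE 0.28; 0.43 without kidney 5) at 6 h and 0.75 (SE 0.28) at 24 h. TNC, the matrix protein tenascin, which is in neither list, differed by 1.42 and 1.08 (0.30 and 0.27 with normexp), against 1.63 in Ctl and 1.94 in WI. COL1A2, a chain of type I collagen, gave 0.25 and 0.54, and its second identifier 0.76 and 0.62. Endothelial genes had medians of 0.05 and 0.13.

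EPO, the hormone made by interstitial fibroblasts near the junction, measured 5.30, 5.75, 3.42, 3.07 and 4.25 in WI+CS6h-C and 5.29, 5.93, 4.51, 5.43 and 5.56 in WI+CS6h-CMJ. The cortex varied widely among the kidneys, kidneys 1 and 2 had little gap at 6 h, and 4 of 5 kidneys were higher in CMJ at each time. The difference was 0.99 (SE 0.34) and 0.96 (SE 0.34), and 0.16 and 0.20 with normexp, against 1.90 in Ctl and 1.93 in WI, both called. CA9, a carbonic anhydrase induced by low oxygen, differed by 0.52 (SE 0.10) and 0.26 (SE 0.10), by 0.24 and 0.12 with normexp, and by 0.74 in Ctl and 0.36 in WI. EPO and CA9 were the only 2 of the 18 listed hypoxia targets above 0 at both times, and 9 were below 0 at both. The list had medians of -0.12 and -0.01, the second of which turned to 0.03 with quantile normalization by group. The angiogenic factor VEGFA differed by 0.07 and -0.03.

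Identifiers that were called in the unstored kidneys gave a broader reading, because their zonal differences there come from other arrays than the stored ones. The calls were made in the 40-array fit, where the stored arrays share the estimate of the spread and the normalization. That fit used pairs by number, which did not pass the check in Ctl. Without the kidney block 97 identifiers were called higher in CMJ and 15 higher in C in Ctl. The 316 identifiers called higher at the junction in Ctl had a median difference of 0.75 in WI, 0.42 at 6 h and 0.36 at 24 h. Of these 316, 313 were above 0 in WI, 294 (93.0%) at 6 h and 297 (94.0%) at 24 h, where 41.9% and 49.6% of all identifiers in that fit were above 0 (46.3% and 72.5% with quantile normalization by group). The 74 called higher in the cortex in Ctl had medians of -0.56 in WI, -0.33 at 6 h and -0.28 at 24 h, with 69, 67 and 69 below 0. In Ctl itself the medians were 0.93 and -0.71, but the identifiers were chosen on these arrays, and so these values are a description. The same held for a choice made in WI. The 478 identifiers called higher at the junction there had medians of 0.57 in Ctl, 0.32 at 6 h and 0.35 at 24 h, and the 135 called higher in the cortex -0.54, -0.32 and -0.28.

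The difference was uneven among the kidneys. Over the 316 identifiers, the median at 6 h was 0.10, 0.31, 0.57, 0.64 and 0.44 in kidneys 1 to 5, and at 24 h 0.46, 0.06, 0.99, 0.08 and 0.14. In WI the pairs by number ran from 0.38 to 1.00. All 10 stored pairs were above 0, and by number the order of the kidneys was not kept from 6 h to 24 h. Number 4 had the highest median at 6 h and was near the lowest at 24 h. The cortex arrays of number 4 did not deviate together between the times (r = -0.31), and that of 6 h matched number 3 of 24 h best (r = 0.57). Over the 74 identifiers higher in the cortex the stored pairs ran from -0.54 to -0.07 at 6 h and from -0.69 to -0.03 at 24 h. Between the arrays of the first and the second scan day, each holding both zones, the median of the 316 was 0.36 and 0.51 at 6 h and 0.33 and 0.44 at 24 h. No test was attached to these medians, since identifiers are not replicates.

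**Figure D3:**
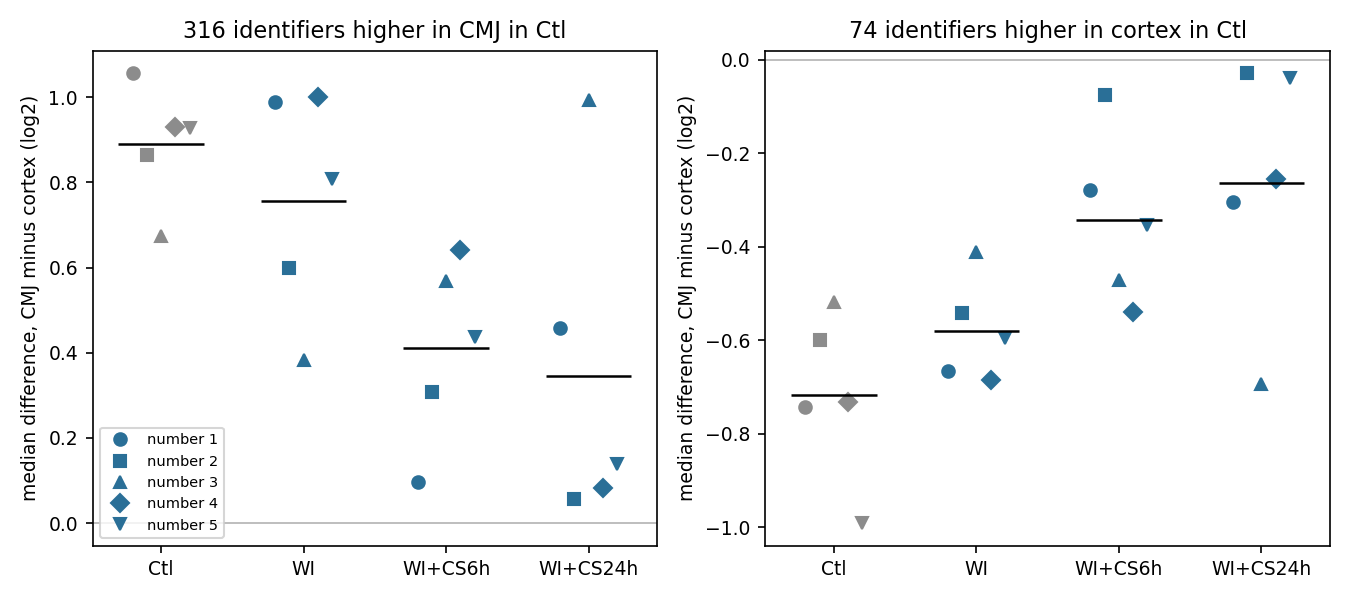
Median zonal difference (CMJ minus C, log2, vertical axis) of the 316 identifiers called higher in CMJ (left) and the 74 called higher in C (right) in Ctl kidneys, for each pair of arrays with the same number, with black bars at the mean of 5 pairs and grey symbols where the identifiers were chosen on the arrays shown. The stored pairs lie between 0.10 and 0.64 at 6 h and between 0.06 and 0.99 at 24 h on the left, and all stay below 0 on the right.

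In all, 121 gene symbols were called in both Ctl and WI in the same direction, 104 of them higher at the junction. HCRTR1, an orexin receptor among them, measured 3.64, 4.11, 2.47, 1.78 and 1.85 in WI+CS6h-C and 4.87, 4.73, 5.25, 4.68 and 3.68 in WI+CS6h-CMJ. The junction was higher in all 5 kidneys at both times, and the cortex was well above background on only 2 of 5 arrays at 6 h and 1 of 5 at 24 h. Its measured difference was 1.87 and 2.60, which for lack of cortex signal gives no exact size, and it was 0.17 and 0.26 with normexp. The cortex was not well above background on any Ctl or WI array, and the junction was on 4 arrays in Ctl and 5 in WI. Each cortex array was set to its own signal or to the lowest signal well above background on it, whichever is higher. The junction was then 14.2-fold and 12.4-fold higher under this normalization. These folds depend on that floor and on the background correction used, so they are no firm lower limit. The growth factor GDF7 differed by 1.67 and 1.41, the noncoding RNA MEG3 by 1.63 and 1.33, and NDUFA4L2, which restrains mitochondrial respiration under low oxygen, by 0.94 and 0.65. With normexp these were 0.35 and 0.38, 0.45 and 0.40, and 0.07 and 0.06. Others of the 104 could not be read after storage, among them HTR1D, a serotonin receptor that was not well above background on any stored array, and the apolipoprotein APOB, which was on 0 to 2 of 5 arrays a group.

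CRABP1, a retinoic acid binding protein, differed by 1.49 and 1.36 (0.80 and 0.86 with normexp, 0.84 at 24 h without kidney 3), but its brighter second identifier differed by 0.32 and 0.35 and by 0.17 in Ctl. FOXA1 differed by 1.09 and 0.75 by the identifier called in Ctl, which was well above background on 2 of 5 cortex arrays at each time and on 3 of 5 junction arrays at 24 h (0.04 and 0.03 with normexp), and by 0.19 and 0.05 by the other. UPK3A, a protein of the urothelium that lines the pelvis, differed by 0.91 and 0.71, against 2.16 in Ctl and 1.50 in WI, with a second identifier close to it and another at 0.23 and 0.08. Its partners in the urothelial plaque had values near or below 0, with UPK1A at -0.21 and -0.08 and UPK1B at -0.34 and -0.10, and the list of 6 had medians of -0.17 and 0.12. The muscle creatine kinase CKM differed by 0.71 and 0.62 (0.29 at 24 h without kidney 3, 0.38 and 0.32 with normexp, second identifier 0.37 and 0.34), while the skeletal muscle list of 9 had medians of -0.03 and -0.04, which turned to 0.02 and 0.07 with scaling to the 75th percentile.

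On the cortical side, PLET1, a surface protein of epithelial progenitors, measured 9.68, 8.97, 9.41, 8.97 and 8.41 in WI+CS6h-C and 8.45, 8.50, 8.19, 7.31 and 7.19 in WI+CS6h-CMJ. Its signals at 24 h were 9.75, 8.88, 9.17, 9.13 and 7.61 in C and 8.61, 8.88, 7.70, 8.29 and 7.27 in CMJ. Each cortex array stood above its junction partner, by the least in kidney 2 at 24 h, and the zones overlapped. The differences were -1.16 (SE 0.23) and -0.76 (SE 0.23), against -1.27 in Ctl and -1.67 in WI. ESM1, a proteoglycan of endothelial cells, measured 8.30, 7.88, 8.79, 8.75 and 8.71 in WI+CS6h-C and 7.33, 7.49, 7.75, 7.44 and 7.66 in WI+CS6h-CMJ. These arrays stood apart, and the differences were -0.95 (SE 0.18) at 6 h and -0.54 (SE 0.18) at 24 h. The cytochrome P450 enzymes CYP1A1 and CYP2D25 differed by -0.97 and -0.37 at 6 h and by -0.53 and -0.38 at 24 h. With normexp the dim CYP1A1 was at -0.07 and -0.08 and CYP2D25 at -0.36 and -0.34. The protease ADAMDEC1 differed by -0.38 and -0.19, against -1.02 in Ctl and -0.98 in WI.

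All 5 junction arrays stood above all 5 cortex arrays at both times for 7 identifiers (0.0195%), and 0 identifiers (0%) stood apart the other way. They are PROX1, TNFAIP8L3, PLCL2, KIZ, HAPLN1 and the unnamed TC531272 and TC562620. PROX1, a transcription factor of lymphatic vessels, measured 2.20, 2.26, 2.47, 2.68 and 2.47 in WI+CS6h-C and 2.77, 2.72, 3.40, 3.42 and 3.34 in WI+CS6h-CMJ. At 24 h it measured 2.66, 2.54, 2.66, 2.60 and 2.77 in C and 3.31, 2.97, 3.99, 3.31 and 3.06 in CMJ. The differences were 0.71 (SE 0.14) and 0.68 (SE 0.14), adjusted p = 0.173 and 0.910 by limma, while Ctl and WI kidneys gave 0.21 and 0.52, and the second PROX1 identifier 0.34 and 0.40. PROX1 was dim, and with normexp it differed by 0.04 and 0.05. HAPLN1, which links hyaluronan to proteoglycans, was not well above background on any cortex array and was on 2 of 5 junction arrays at each time, so that no fold is given (0.03 and 0.03 with normexp), and its second identifier differed by -0.24 and 0.59. At a single time, 112 identifiers (0.312%) stood apart with CMJ higher and 117 (0.326%) with C higher at 6 h, and 66 (0.184%) and 85 (0.236%) at 24 h.

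The zonal difference of the stored kidneys was then tested against that of unstored kidneys, with all 40 arrays in the fit. Against Ctl, limma called 0 identifiers, with 2019 at an unadjusted p under 0.05. Against WI it called 1 (0.00278%), the immediate early factor EGR1, with 2013 at an unadjusted p under 0.05. EGR1 measured 4.17, 4.24, 4.76, 4.44 and 4.65 in WI-C and 5.62, 5.35, 5.87, 5.78 and 6.12 in WI-CMJ, which did not overlap. In WI+CS6h-C it measured 6.06, 5.51, 5.68, 5.59 and 5.74 and in WI+CS6h-CMJ 5.65, 5.57, 5.53, 5.87 and 6.21. At 24 h it measured 5.54, 5.99, 5.10, 5.77 and 5.57 in C and 5.80, 5.74, 5.59, 5.47 and 6.21 in CMJ. The stored cortex stood above the WI cortex, near the level of the junction, and the stored junction was at the level of the WI junction.

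The EGR1 difference was 1.29 (SE 0.14) in WI, 0.05 (SE 0.16) at 6 h and 0.17 (SE 0.16) at 24 h, and the stored minus WI contrast was -1.19 (SE 0.17, adjusted p = 0.0285 by limma). With no kidney block, with scaling to the 75th percentile, with quantile normalization by group and without WI+CS6h-C 3 and 5, this contrast called 0 identifiers. Of the 15 genes of the immediate early and stress response list, 7 were called in WI, EGR1 and 6 others. FOS (1.48), FOSB (1.37) and KLF4 (1.35) had stored differences of 0.52 and 0.63, -0.36 and -0.00, and 0.39 and 0.43. BTG2 (0.76), JUN (0.52) and GADD45A (-0.55) had -0.06 and 0.10, 0.27 and 0.19, and -0.23 and -0.28. FOS measured 11.61, 12.74, 12.70, 12.21 and 12.06 in WI+CS6h-C and from 12.20 in kidney 1 to 13.30 in kidney 5 in WI+CS6h-CMJ, with overlap and with kidney 2 in the opposite order. For FOS, FOSB and KLF4 the contrast with WI was not called (adjusted p = 0.332, 0.244 and 0.244). The whole list of 15 genes had medians of 0.42 in WI, -0.12 at 6 h (0.01 on the deposited values) and 0.11 at 24 h.

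AKR1B1, the aldose reductase that makes the medullary osmolyte sorbitol, had the smallest adjusted p of the contrast with Ctl. It measured 6.70, 6.70, 6.65, 6.75 and 7.10 in Ctl-C and 8.95, 8.19, 6.97, 9.09 and 9.86 in Ctl-CMJ. In WI+CS6h-C it measured 7.21, 6.93, 7.12, 6.82 and 7.19 and in WI+CS6h-CMJ 6.95, 7.23, 7.52, 6.88 and 6.99. The zones lay apart in Ctl but for junction array 3, which was below the highest cortex array, and they overlapped in the stored kidneys. The difference was 1.83 (SE 0.24) in Ctl, 0.43 in WI, 0.06 at 6 h and 0.16 at 24 h, and the stored minus Ctl contrast was -1.72 (SE 0.29, adjusted p = 0.0796). CRYAB, a small heat shock protein abundant in the medulla, differed by 0.58 and 0.48 after 1.27 in Ctl and 0.96 in WI, and its second identifier was between -0.13 and 0.06 in all conditions. The thin limb and osmolyte list of 6 had medians of 0.05 and 0.08, against 0.39 in Ctl and 0.29 in WI.

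Smooth muscle genes had their largest difference in WI, with a median of 0.78 and 5 of 5 called, against 0.42 in Ctl. CNN1, the calponin of contractile muscle, differed by 1.92 in WI (SE 0.34) and by -0.05 and 0.12 in the stored kidneys, with a contrast of -1.89 (SE 0.41, adjusted p = 0.244) that was not called. The sign of its 6 h value turned with the scaling. The adipocyte list was at 0.53 in WI and at -0.16 and -0.15 in the stored kidneys, a change that was not tested. The zonal difference of SLC5A1 in stored kidneys differed by -0.36 and -0.37 from that in Ctl and WI (SE 0.26 each), and that of WT1 by -0.12 and -0.05 (SE 0.18 each), neither of which was called.

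**Figure D4:**
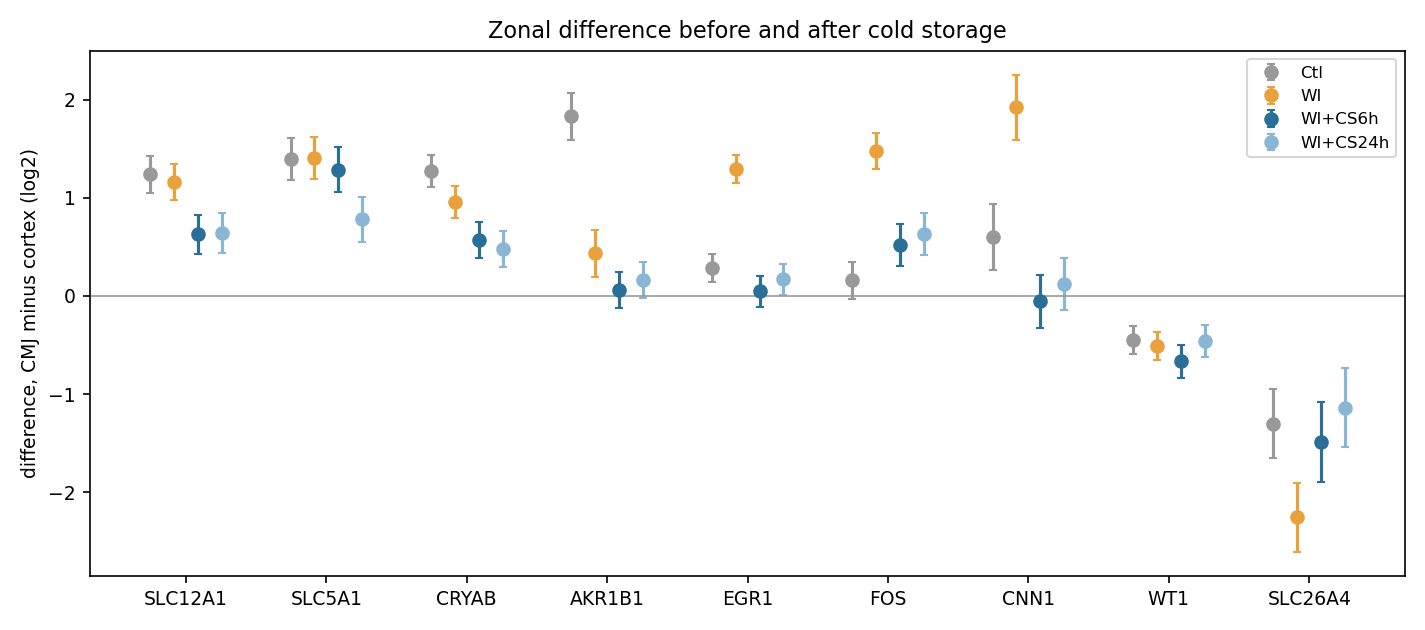
Zonal difference (CMJ minus C, log2, vertical axis) of 9 genes in Ctl, WI, WI+CS6h and WI+CS24h kidneys, with points at the limma estimate and bars of 1 SE on each side. EGR1 stands at 1.29 in WI and at 0.05 and 0.17 after storage, AKR1B1 at 1.83 in Ctl and at 0.06 and 0.16 after storage, and SLC26A4 is below 0 in all 4 conditions.

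None of the heat shock and inflammatory genes was called, as was true of all identifiers but HAS1. All 13 members of the heat shock list, which does not hold CRYAB, were below 0 at both times (12 with normexp and on the deposited values), beside 13184 of all 35943 identifiers, with medians of -0.13 and -0.11, and all were well above background on every stored array. NR4A3, a nuclear receptor induced by stress, differed by -0.69 (SE 0.18) and -0.34 (-0.33 and -0.16 with normexp) with the cortex higher in all 5 kidneys at both times, and by -0.72 in Ctl. Chemokines and cytokines had medians of 0.12 and -0.01, the second of which was above 0 under 4 other scalings. CCL20, which attracts lymphocytes and dendritic cells, measured 4.43, 4.83, 4.70, 5.19 and 3.70 in WI+CS6h-C and 5.37, 5.20, 6.23, 6.53 and 4.04 in WI+CS6h-CMJ. Kidney 5 was the lowest in both zones, each junction array was above its cortex partner at 6 h, and the zones overlapped. CCL20 differed by 0.91 (SE 0.23) and 0.56 (SE 0.23), and by 0.23 and 0.13 with normexp, against 1.08 in Ctl and 0.65 in WI, and the cytokine IL10 by 0.81 and 0.28 (0.04 and 0.03 with normexp) with the cortex well above background on 2 of 5 arrays at 6 h. Leukocyte markers had medians of -0.09 and 0.05 and erythrocyte markers 0.07 and -0.03, and the first turned to 0.01 and the last to 0.13 with quantile normalization by group, while the erythrocyte median at 6 h turned to -0.01 with normexp. The straight proximal tubule, hypoxia, skeletal muscle and immediate early lists also turned at one or both times, as given above. The medians of the remaining lists named kept their direction under all 5 other scalings and backgrounds tried. Their size moved by over 1.5 times at one or both times in all but the fibroblast and matrix list. At 6 h normexp gave -0.17 for intercalated cells, 0.18 for the thick ascending limb, -0.06 for podocytes and -0.09 for principal cells, and scaling to the 75th percentile gave 0.11 for smooth muscle and -0.25 for the convoluted proximal tubule.

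Over all identifiers the zonal differences at 6 h and 24 h correlated with r = 0.31, and they come from the same kidneys. The correlation with the difference in Ctl was 0.15 at 6 h and 0.21 at 24 h, that with WI 0.23 and 0.39, and Ctl with WI gave 0.43. These are descriptions across 35943 identifiers that share probes, platform and normalization. At 6 h 2710 identifiers (7.58%) were higher in C in all 5 kidneys and 1223 (3.42%) in CMJ, and at 24 h 1019 (2.85%) and 1096 (3.06%). In all 10 pairs, 179 identifiers (0.5%) were higher in CMJ and 96 (0.268%) in C. WI+CS6h-C arrays 3 and 5 had 57.2% and 57.0% of spots well above background, the lowest of the stored groups, and 0 identifiers were called at 6 h both in a fit with this share as a covariate and without these arrays, where HAS1 differed by -1.85 and -1.81.

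No kidney had both of its zones on the same slide. Slides that held both zones of a time gave SLC5A1 differences of 0.78 and 2.11 at 6 h and 1.95 and 1.07 at 24 h, and SLC12A1 differences of 0.25 and 0.86, and 1.80 and 0.52, each from 1 array of each zone. Other genes had opposite signs on different slides, with OAT at -0.59 and CLDN16 at -0.53 on 1 slide at 6 h, and CLDN19 at -0.42, PTGER3 at -0.67, TNC at -0.60 and HCRTR1 at -1.11 on 1 slide at 24 h. Within the scan days SLC5A1 differed by 1.35 and 1.25 at 6 h and by 1.03 and 0.42 at 24 h, SLC26A4 by -0.96 and -1.85 and by -1.12 and -1.17, and WT1 by -0.68 and -0.66 and by -0.75 and -0.03. Of 59 genes followed in detail, 49 at 6 h and 47 at 24 h had the same sign on both days.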

How the data were processed

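Total RNA of cortex and corticomedullary junction was labelled with Cy3 and hybridized to 40 porcine Agilent arrays, 20 of them of cold-stored kidneys. The authors deposited 1 Feature Extraction 11.5.1.1 table per array (protocol GE1_1105_Oct12), whose processed intensity is background-subtracted and not normalized between arrays, and a matrix of log2 values, used here as an alternative. Per the submitters' notes R 2.15.2 and limma were used. The number of arrays limits the precision.

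Processed intensities of the 43803 spots that are not controls were taken to log2, 10 to 85 outlier spots per array were left out, and all 40 arrays were quantile normalized and averaged by systematic name to 35955 identifiers, 8924 with a symbol from the array files or a RefSeq table. Those with a value in each group were fitted with limma 3.58.1 in R 4.3.3, 35943 with 20 arrays and 35934 with 40, and the fits were tested on simulated arrays. Figures used Python 3.11.15 and matplotlib 3.10.9. Correlations between arrays ran from 0.949 to 0.995, and no array duplicated another.

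Groups follow the sample titles. The labels do not link cortex and junction of a number, so the pairing was checked before calls were compared. The deviations of both arrays from their group means correlated with r from 0.13 to 0.48 in the 10 stored pairs, all above 0.1, and 5 matched their own number best. The kidney number was therefore a block, which also joins the times. Between 6 h and 24 h arrays of a number r ran from 0.33 to 0.61 in the junction. In the cortex it ran from -0.31 to 0.36, with kidneys 4 (-0.31) and 5 (0.03) under 0.1. Cortex array 4 at 6 h matched array 3 at 24 h best (r = 0.57), and array 3 at 6 h matched array 4 at 24 h best (0.33). Results that follow a kidney from 6 h to 24 h rest on the numbers in the titles. Between cortex and junction arrays of a number r ran from -0.13 to 0.08 in Ctl and from 0.04 to 0.18 in WI. Alternatives changed the block, scaling, background, filter, probe summary, batch terms and arrays.

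The gene lists, members and tests were chosen with earlier results of these data known. Named genes were to be the largest of those called at both times (none), for each list its first members on the array and those with the largest mean difference, and genes called against Ctl or WI (EGR1). Others were chosen after their values were seen. A symbol is represented by its brightest identifier, except PROX1, CRABP1, FOXA1 and HAPLN1, where the one that stood apart or was called in unstored kidneys was used. No identifier carried the symbol of renin.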

Additional observations from a re-analysis of the deposited data

Results flagged for a closer look

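Among the genes followed in detail and the share of spots well above background, 240 groups of 5 arrays were looked at and 14 (5.83%) held an array whose distance from the nearest of the others was large for the range of the group, where chance alone gives about 1 in 20. Several of these arrays belong to kidney 5 at 6 h. In WI+CS6h-C array 5, SLC5A1 was at 7.19 (other arrays 6.59 to 6.76), CA2 at 11.59 (10.86 to 11.04) and CA9 at 7.47 (6.41 to 6.63). In WI+CS6h-CMJ array 5, PTPRO was at 3.12 (3.82 to 4.09), FOSB at 4.78 (2.66 to 3.09) and GDF7 at 5.79 (6.38 to 6.52). In WI+CS6h-CMJ array 4, SLC26A4 was at 1.19 (3.10 to 3.49) and not well above background. In WI+CS6h-C array 1, ADAMTS16, a protease higher in the cortex, was at 4.84 (4.44 to 4.53).

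At 24 h, PTGER3 was at 8.09 (7.23 to 7.46) and NDUFA4L2 at 1.84 (2.22 to 2.36) in WI+CS24h-C array 2, TNFAIP8L3 was at 4.70 (5.35 to 5.56) in WI+CS24h-C array 3, PTPRO was at 4.23 (3.33 to 3.57) in WI+CS24h-CMJ array 2, and CKM was at 6.74 (7.98 to 8.48) and ESM1 at 8.30 (7.61 to 7.69) in WI+CS24h-CMJ array 4.

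The zonal difference of EGR1 in stored kidneys minus that in WI kidneys was -1.19, and the difference itself was tested by limma (adjusted p = 0.0285).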

How the results depend on the processing

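With the kidney number as the replicate block, limma called 1 identifier at 6 h and 1 in the stored minus WI contrast, and with no replicate block it called 0 in both. At 6 h it called 0 with scaling to the 75th percentile, a filter on dim identifiers, normexp background, the deposited values, outlier spots kept, the share of spots well above background as a covariate, the 10 arrays of a time alone, and without WI+CS6h-C 3 and 5 (added after seeing the data). Quantile normalization by group called 846 at 6 h (401 higher in CMJ), 508 at 24 h (499), 56 at both times, 4645 in the change (4592), 6 against Ctl and 0 against WI. Since each group then had its own distribution, that setting also moved the median of all identifiers. The stored minus Ctl contrast, at 0, gave 3 with the dim filter and 1 on the deposited values. The contrast with WI, at 1, gave 0 with the 75th percentile and without WI+CS6h-C 3 and 5, and 5 with normexp. Of the alternatives chosen after seeing the data, the 40-array fit called 45 at 6 h and the mean contrast of the 20 arrays 30, where kidney means gave 0. Slide as a random block, scan day as a term, a fit per probe and no minimum difference gave 1 at 6 h and 0 at 24 h. The kidney means were not fitted with a block, slide, scan day, covariate or the arrays of a time alone, which do not apply to them.

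Leaving out a kidney or an array gave 0 to 8 calls at 6 h (8 without WI+CS24h-C 1, and 0 in 20 of 25 fits), 0 to 8 against Ctl (8 without stored kidney 3, 6 without WI+CS24h-C 3, 4 without WI+CS24h-CMJ 3), 0 to 1 against WI (0 in 13 of 25), and 0 at 24 h, at both times, in the change and in the kidney means. The median stored difference of identifiers called higher in CMJ in Ctl, 0.386, stayed between 0.270 (without stored kidney 3) and 0.475 (without kidney 2), and between 0.282 and 0.566 under the other settings.

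For the 59 genes followed, the values under all these settings kept direction and call 4605 times, lost the call 28 times, gained one 39 times and changed sign 40 times. CNN1 at 6 h turned to 7.23e-06 (75th percentile), 0.0132 (normexp), 0.00078 (deposited) and 0.0196 (per probe). FOSB at 24 h turned to 0.062 (75th percentile), 0.135 (by group), 0.0258 (normexp) and 0.0232 (deposited), and HAS1 at 24 h to 0.0709 (normexp), with -0.683 to -0.268 when a kidney or an array was left out. Leaving out a kidney or an array gave, at 6 h, -0.0242 to 0.161 for AKR1B1, -0.0481 to 0.191 for PVALB, -0.256 to 0.137 for CNN1 and -0.0596 to 0.162 for EGR1, and at 24 h -0.084 to 0.307 for AKR1B1, -0.164 to 0.234 for PVALB, -0.0491 to 0.263 for CNN1 and -0.228 to 0.147 for FOSB. Except where a setting's own construction shows it, the cause was not tested. HAS1 at 6 h moved from -1.86 to -0.126 (normexp) and -0.448 (deposited). Probes not well above background carry only a bound, and 35 of the 59 genes at 6 h and 38 at 24 h shrank over 1.5 times or turned with normexp. Without kidney 3 further 24 h differences that moved by over 1.5 times were 0.59 for EPO, 0.42 for UPK3A, 0.38 for NDUFA4L2, 0.30 for TNFAIP8L3, 0.25 for CRYAB, 0.18 for UCP2, 0.09 for IL10, -0.11 for CA2, -0.05 for CALB1, -0.18 for SLC22A6, -0.26 for SLC22A8, -0.23 for G6PC, -0.28 for CYP1A1, -0.24 for CYP2D25 and -0.19 for NR4A3. At 24 h CCL20 was 0.33 without kidney 1, and at 6 h EPO was 0.64 and CYP2D25 -0.23 without kidney 4, FOS 0.34 and COL1A2 0.16 without kidney 5, and PTPRO -0.18 without kidney 1. Normexp gave 0.18 and 0.11 for CLDN16, 0.21 and 0.27 for PTGER3, 0.24 and 0.26 for KLF4 and -0.19 and -0.09 for ADAMDEC1.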
